A study of Mus musculus with 2 samples.

Results

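The 9 genes described here encode the insulin-like growth factor (IGF) binding proteins Igfbp2, Igfbp3, Igfbp4, Igfbp5, Igfbp6 and Igfbp7, the ligands Igf1 and Igf2, and the receptor Igf1r. They were taken by symbol from the 27998 features of the series, and all 9 were found in both count matrices. Dissociated cells of the cornea with its limbus had been profiled by 10x Genomics droplet sequencing from 1 wild-type and 1 Becn1 +/- female littermate, both C57BL/6 and 28 days old. Becn1 encodes beclin 1, a subunit of the lipid kinase complex that starts autophagy. Each genotype was thus 1 animal and 1 library, so genotype, animal and library preparation cannot be told apart, and no difference between the libraries has a replicate check. The name "heterozygote library" below stands for the library labelled Becn1 +/-. Over all cells kept, Becn1 itself stood at 42.6 and 42.9 counts per 1000000 UMIs (CPM, a UMI being 1 counted RNA molecule), a log2 ratio of 0.01 (95% interval -0.07 to 0.09). Which part of the gene the allele alters is not given in the sources used here, so this level does not check the label.

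IGF1 and IGF2 are secreted growth factors that act through the tyrosine kinase receptor IGF1R, and the binding proteins hold them in extracellular fluid and matrix. A bound ligand is kept from the receptor and also protected from clearance, and proteases release it by cutting the binding protein. IGFBP7 is the exception among the 6, since it binds IGFs with low affinity. In the eye, IGFs are known as mitogens and matrix stimulants for cultured keratocytes, the resident cells of the corneal stroma.

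Cells were assigned to 5 gates by their own CPM of a few marker genes. The limbal gate took cells with at least 500 CPM of Gpha2 and 2000 CPM of Krt14, the basal gate cells with at least 2000 CPM of Krt14 and 8000 CPM of Krt12, and the wing gate cells with at least 20000 CPM of Krt12 and under 2000 CPM of Krt14. Stromal cells had at least 5000 CPM of Dcn and were divided at 1000 CPM of Kera into Kera-high and Kera-low cells. No member gene was used for a gate. In the order limbal, basal, wing, Kera-high and Kera-low, the gates held 230, 809, 520, 406 and 145 wild-type cells and 364, 1441, 977, 955 and 367 heterozygote cells. Median depth was 9558 to 23122.5 UMIs over the wild-type gates and 6693 to 15471 UMIs over the heterozygote gates. The libraries shared 15 cell barcodes. Markers not used for the gates were looked up in them: the limbal marker Krt15 was at 5144 and 4032 CPM in limbal against 794 and 848 CPM in basal cells, and the keratocyte proteoglycan Lum at 5444 and 5395 CPM in Kera-high against 3201 and 3806 CPM in Kera-low cells. Between wing and basal cells such markers were mixed: Col17a1, a basal anchoring collagen, was lower in wing cells (429 and 316 against 643 and 575 CPM), while the basal keratin Krt5 was higher (7413 and 6569 against 4432 and 4013 CPM), so the name wing stands for the gate's rule. The assay counts 1 tag per captured RNA molecule, so CPM of different genes are compared without scaling by gene length. Throughout, the first value of a pair is from the wild-type and the second from the heterozygote library, and intervals are exact 95% intervals that cover counting error only.

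The 9 genes lie at 8 separate places in the genome, with Igfbp2 and Igfbp5 as the one neighbouring pair. On GRCm38, Igfbp2 spans 72824503 to 72852474 of chromosome 1 on the plus strand, and Igfbp5 spans 72857932 to 72874884 on the minus strand, so the genes run toward each other with 5457 bases between them. On chromosome 11 Igfbp3 lies at 7206086 to 7213923 and Igfbp4 at 99041244 to 99054392, and on chromosome 7 Igf1r lies at 67952827 to 68233668 and Igf2 at 142650766 to 142666816. Igfbp6 is at 102144362 to 102149511 of chromosome 15, Igfbp7 at 77349240 to 77408041 of chromosome 5 and Igf1 at 87858265 to 87937042 of chromosome 10. The 250 bases before the transcription start (the first of the starts listed, where there are several) are shown for the 3 binding proteins that were higher in limbal than in basal cells, Igfbp2, Igfbp3 and Igfbp7, and for Igfbp6, which separated Kera-low from Kera-high cells most widely. They are RefSeq sequences of GRCm38.p6, written 5′ to 3′ on the gene's own strand, and capitals mark any match, on either strand, to the TATA box (TATAAA), the GC box (GGGCGG), the CCAAT box, the AP-1 site (TGANTCA) or the E-box (CACGTG).
Igfbp2, chr1:72824230-72824479, plus strand: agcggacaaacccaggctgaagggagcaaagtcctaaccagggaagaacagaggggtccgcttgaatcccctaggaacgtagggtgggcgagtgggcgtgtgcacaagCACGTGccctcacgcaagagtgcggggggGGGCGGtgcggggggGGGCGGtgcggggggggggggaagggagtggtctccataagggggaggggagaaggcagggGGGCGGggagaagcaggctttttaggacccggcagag
Igfbp3, chr11:7213924-7214173, minus strand: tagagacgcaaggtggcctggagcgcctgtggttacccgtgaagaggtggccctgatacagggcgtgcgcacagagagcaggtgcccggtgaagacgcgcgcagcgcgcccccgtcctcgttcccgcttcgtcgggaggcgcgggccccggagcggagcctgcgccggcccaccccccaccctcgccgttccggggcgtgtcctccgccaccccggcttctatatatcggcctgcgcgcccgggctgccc
Igfbp7, chr5:77408046-77408295, minus strand: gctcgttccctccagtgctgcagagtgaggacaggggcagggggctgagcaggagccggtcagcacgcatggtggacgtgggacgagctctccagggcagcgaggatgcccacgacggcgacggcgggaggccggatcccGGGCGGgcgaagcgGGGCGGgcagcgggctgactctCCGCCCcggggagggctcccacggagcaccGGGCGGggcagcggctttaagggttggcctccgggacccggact
Igfbp6, chr15:102143936-102144185, plus strand: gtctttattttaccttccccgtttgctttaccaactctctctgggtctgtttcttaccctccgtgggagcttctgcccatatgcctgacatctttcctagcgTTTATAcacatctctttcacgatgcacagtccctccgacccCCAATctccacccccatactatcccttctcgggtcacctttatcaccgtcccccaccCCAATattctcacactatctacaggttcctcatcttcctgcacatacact
The Igfbp2 stretch held 3 GGGCGG matches and 1 CACGTG match. RefSeq lists another start for Igfbp2, not shown, whose window held neither of these and 1 TGANTCA match. The Igfbp7 stretch held 4 GGGCGG matches. The Igfbp3 stretch held none of the 5 motifs, and the Igfbp6 stretch held 1 TATAAA and 2 CCAAT matches. Over 32851 RefSeq starts, GGGCGG was found in 32.7% of such windows, CCAAT in 33.8%, TATAAA in 12.4%, TGANTCA in 6.75% and CACGTG in 6.02%. The 3 genes that were higher in limbal cells thus had no motif of these 5 in common.

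Igfbp2 was among the most abundant transcripts of the stroma. In Kera-high cells it stood at 24774 CPM (24640 to 24909) and 27550 CPM (27439 to 27662), which was 2.48% and 2.76% of all UMIs there and rank 4 and rank 3 among all genes. In Kera-low cells it was at 11128 and 18428 CPM, rank 6 and rank 4. At an even depth of 5000 UMIs per cell, 98.8% and 99.8% of Kera-high cells and 85.5% and 93.2% of Kera-low cells held an Igfbp2 UMI. Igfbp2 alone supplied 94.7% and 96.1% of the UMIs of the 6 binding proteins in Kera-high cells, but 64.8% and 79.6% in Kera-low cells, where other binding proteins were high as well.

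Igfbp7 and Igfbp4 followed in the stroma with different patterns. Igfbp7, which is also known from blood vessel walls, was at 3059 CPM (2969 to 3150) and 2731 CPM (2670 to 2792) in Kera-low cells, and at 484 and 394 CPM in Kera-high cells. Igfbp4, a binding protein that the protease PAPP-A cuts, was level across the stroma with 627 and 529 CPM in Kera-high cells and 604 and 534 CPM in Kera-low cells. The proteases Pappa and Pappa2 were at 0 to 1.06 CPM and 0 to 2.08 CPM over the gates, below the 20 CPM used as a minimum.

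Igfbp5 and Igfbp6 belonged to Kera-low cells. Igfbp6, which prefers IGF2 over IGF1, was at 1354 CPM (1295 to 1415) and 1011 CPM (975 to 1049) in Kera-low cells against 65.1 and 35.1 CPM in Kera-high cells. Igfbp5, which also binds extracellular matrix, was at 993 CPM (943 to 1046) and 426 CPM (402 to 450) in Kera-low cells against 179 and 127 CPM in Kera-high cells. For both genes the Kera-low values of both libraries lay above every other gate.

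Both ligands were sparse and were found chiefly in Kera-low cells. Igf1 was at 154 CPM (135 to 176) and 50.0 CPM (42.1 to 59.0) there, against 8.92 and 9.82 CPM in Kera-high cells. Igf2, an imprinted gene that in the fetus is one of the main growth factors, was at 101 CPM (85.3 to 119) and 46.5 CPM (38.9 to 55.2) in Kera-low cells, against 5.69 and 2.81 CPM in Kera-high cells. In the epithelial gates Igf1 was at 0 to 1.54 CPM and Igf2 at 0.880 to 2.53 CPM. No Igf1 UMI was counted in the 809 wild-type basal cells, where the exact interval ran up to 0.227 CPM.

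Igf1r, the receptor, was found in all 5 gates with less than a 2-fold range. It was at 69.0 and 68.9 CPM in limbal cells, 66.5 and 74.7 CPM in Kera-low cells, 57.9 and 60.1 CPM in Kera-high cells, 45.4 and 44.4 CPM in basal cells and 45.9 and 38.2 CPM in wing cells. In the wild-type library the intervals of limbal, Kera-low and Kera-high cells overlapped one another, as did those of basal and wing cells. In the heterozygote library the first 3 gates overlapped too, while wing cells (35.4 to 41.1 CPM) lay just below basal cells (41.5 to 47.4 CPM). The overlap of Kera-high and Kera-low cells was narrow there, with a log2 ratio of -0.32 (-0.55 to -0.08) between them. On the same CPM scale the other receptors were lower: Igf2r, which clears IGF2, was at 7.37 to 23.5 CPM over the gates, the insulin receptor Insr at 3.01 to 7.05 CPM, and Insrr had no UMI.

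**Figure D1:**
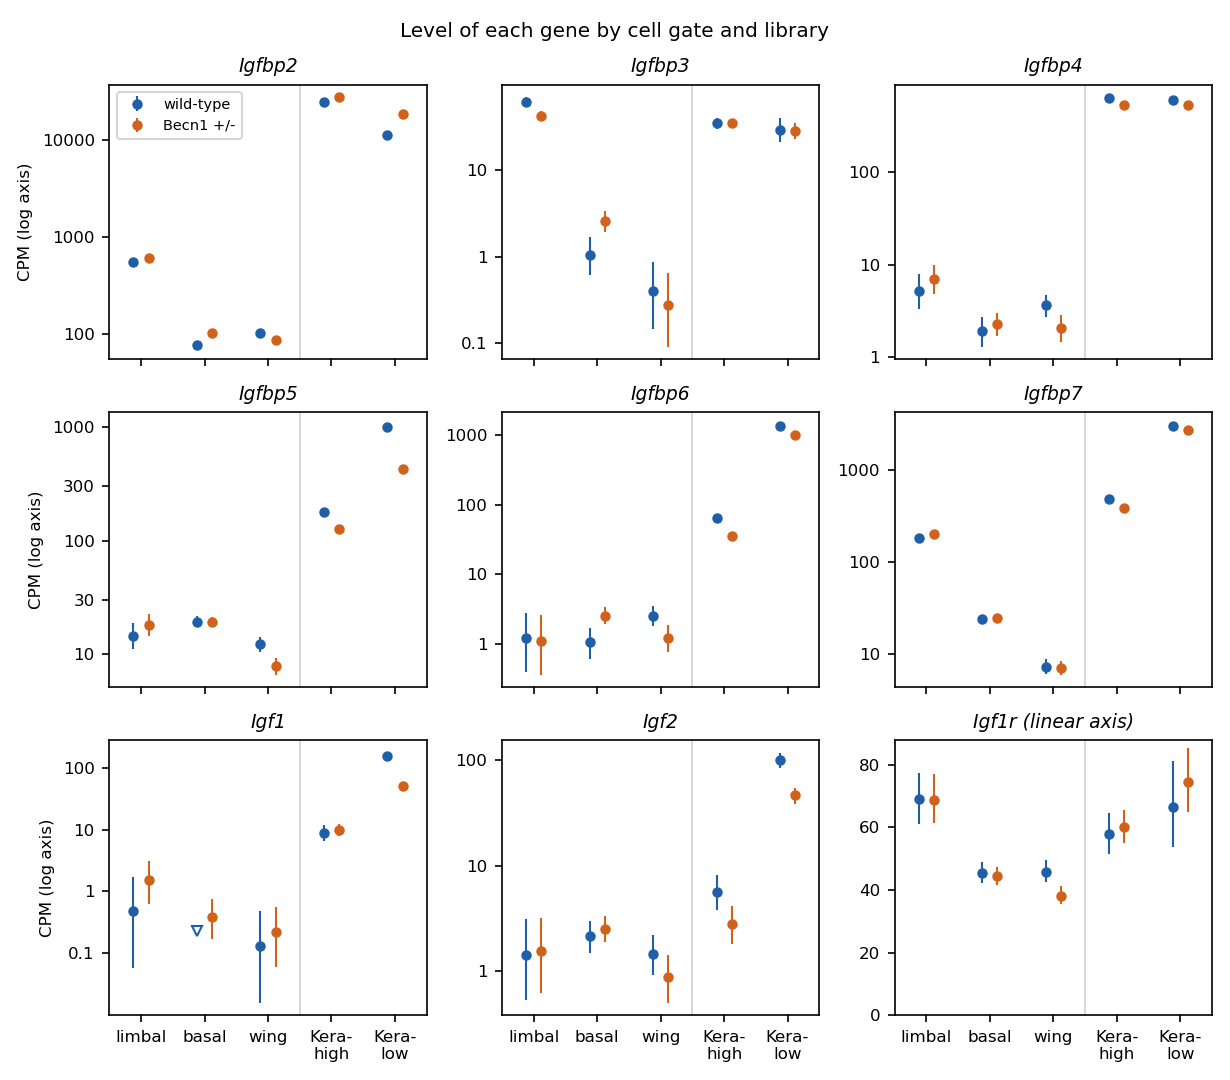
Level of each gene (CPM; log axis except for Igf1r) in the 5 gates, for the wild-type (blue) and the Becn1 +/- (orange) library; points are pooled levels, bars exact 95% Poisson intervals, and the open triangle is the upper bound where no UMI was counted. Igfbp2 reaches 24774 and 27550 CPM in Kera-high cells, Igfbp5, Igfbp6, Igfbp7, Igf1 and Igf2 are highest in Kera-low cells, and Igf1r stays between 38.2 and 74.7 CPM.

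Set against the epithelium as a whole, 5 of the 6 members with a mean of at least 20 CPM in both libraries were at least 2 times higher in pooled stromal cells in both libraries. This share is read against a background of 21.7% of all 4553 genes measured, with 16.8% lower. The log2 ratios were 7.25 and 7.42 for Igfbp2, 7.67 and 7.61 for Igfbp4, 7.65 and 7.24 for Igfbp6, 4.87 and 4.76 for Igfbp7 and 4.48 and 3.81 for Igfbp5. Igf1r was the member that did not reach the 2-fold mark, with 0.31 and 0.52. Igfbp4 and Igfbp6, under 5 CPM in the epithelium, reached the minimum through the stroma alone, so their place in the count followed from the minimum. Igfbp5, at 15.9 and 14.4 CPM in the epithelium, also reached it through the stroma alone, so its direction followed from the minimum.

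Free RNA in the droplets sets how far the low epithelial values can be read. Stromal marker genes were found in epithelial gates at 0.183% to 1.07% of their stromal level for the wild-type library and at 0.264% to 0.574% for the heterozygote library. Igfbp2 stood inside the range of these markers in wing cells, with 0.463% and 0.340% of its stromal level, and in basal cells it was at 0.353% against a marker range of 0.213% to 0.300% in the wild-type library and at 0.402% against 0.264% to 0.403% in the heterozygote library. Its 101 and 85.8 CPM in wing cells and its 102 CPM in heterozygote basal cells were thus not above the highest marker when pooled, though 10 of the 520 wild-type wing cells held 55.4% of that gate's Igfbp2 UMIs. The marker medians were 0.425% and 0.403% in wing cells and 0.330% in heterozygote basal cells. Only Col1a1 and Col1a2 were above Igfbp2 in wild-type wing cells, and only Apod in heterozygote basal cells. In limbal cells Igfbp2 was at 2.53% and 2.39%, against markers at 0.183% to 0.280% and 0.293% to 0.441%. Igfbp7 (17.5% and 20.8%) and Igfbp3 (185% and 126%) also exceeded the markers in limbal cells, and Igfbp5 exceeded them in all 3 epithelial gates, at 3.48% to 9.54%, with levels of 7.87 to 19.5 CPM. Igf2 did so too, at 5.48% to 18.5%, but with levels of 0.880 to 2.53 CPM. Igfbp3 in basal cells (3.08% and 7.60%) and Igfbp4 in limbal cells (0.847% and 1.32%) were above the markers as well, at levels of 1.04 to 7.02 CPM. In basal cells Igfbp7 was also above them, at 2.31% and 2.54%, with levels of 24.0 and 24.7 CPM. In wing cells Igfbp7 was at 0.702% and 0.727%. This lay inside the wild-type marker range of 0.328% to 1.07% and above the heterozygote range of 0.333% to 0.574%. In the other direction, the epithelial keratins Krt5, Krt12, Krt14 and Krt15 were at 2.71% to 9.21% of their epithelial level in the stromal gates.

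Within the epithelium, 3 of the 4 members measured were at least 2 times higher in limbal than in basal cells in both libraries, against 3.23% of 4089 genes, with 1.81% lower. Igfbp2 was at 553 CPM (530 to 576) and 603 CPM (581 to 626) in limbal cells and at 77.0 and 102 CPM in basal cells, log2 ratios of 2.84 (2.74 to 2.94) and 2.57 (2.49 to 2.65). Igfbp7 was at 181 CPM (169 to 195) and 203 CPM (190 to 216) in limbal cells and at 24.0 and 24.7 CPM in basal cells, log2 ratios of 2.92 (2.74 to 3.10) and 3.03 (2.88 to 3.19). Igfbp3, the main IGF carrier of blood, was at 63.0 CPM (55.6 to 71.1) and 42.8 CPM (37.0 to 49.2) in limbal cells and at 1.04 and 2.58 CPM in basal cells, log2 ratios of 5.87 (5.21 to 6.72) and 4.04 (3.61 to 4.52). Igfbp3 was thus the one binding protein with a higher level in limbal cells than in either stromal gate, where it stood between 28.9 and 35.7 CPM, although in the heterozygote library its limbal interval overlapped that of Kera-high cells (31.8 to 39.9 CPM). Igf1r was higher by less, with log2 ratios of 0.60 and 0.64. Igfbp3 reached the minimum through limbal cells alone, so its place in the count followed from the minimum. With all gate thresholds halved, it no longer reached the minimum of 20 CPM, while its log2 ratios were 4.94 and 3.90. A single heterozygote cell held 446 of the 2747 Igfbp2 UMIs of the limbal gate (16.2%), and with the highest cell of each gate left out its heterozygote ratio was 2.39.

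The 3 limbal binding proteins differed in where they lay among Krt14 cells. Igfbp2 and Igfbp7 were higher at each step of Gpha2: Igfbp2 went from 77.9 and 102 CPM in cells under 250 CPM of Gpha2 to 595 and 731 CPM in cells at 1000 CPM or more, and Igfbp7 went from 22.4 and 30.3 CPM to 218 and 245 CPM, with Igfbp7 at 79.9 and 75.1 CPM in the step just above the lowest. Igfbp3 was already at 45.2 and 20.8 CPM at 250 to 500 CPM of Gpha2, just outside the limbal threshold, and at 69.5 and 46.5 CPM just inside it. Dividing the limbal cells at 8000 CPM of Krt12, the keratin of corneal differentiation, gave 628 and 810 CPM of Igfbp2 below it against 209 and 205 CPM above it. Igfbp3 behaved alike, at 73.8 and 57.4 CPM below against 13.3 and 14.7 CPM above. Igfbp7 was at 175 and 238 CPM below against 211 and 135 CPM above, so its order differed between the libraries. At 5000 UMIs per cell, 5 of the 36 wild-type limbal cells with Igfbp3 also held Igfbp7, compared with 43.5% of all limbal cells, and in the heterozygote library it was 14 of 38 compared with 52.5%. Of the same Igfbp3 cells, 34 of 36 and 35 of 38 held Igfbp2, compared with 73.5% and 70.9% of all limbal cells.

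**Figure D2:**
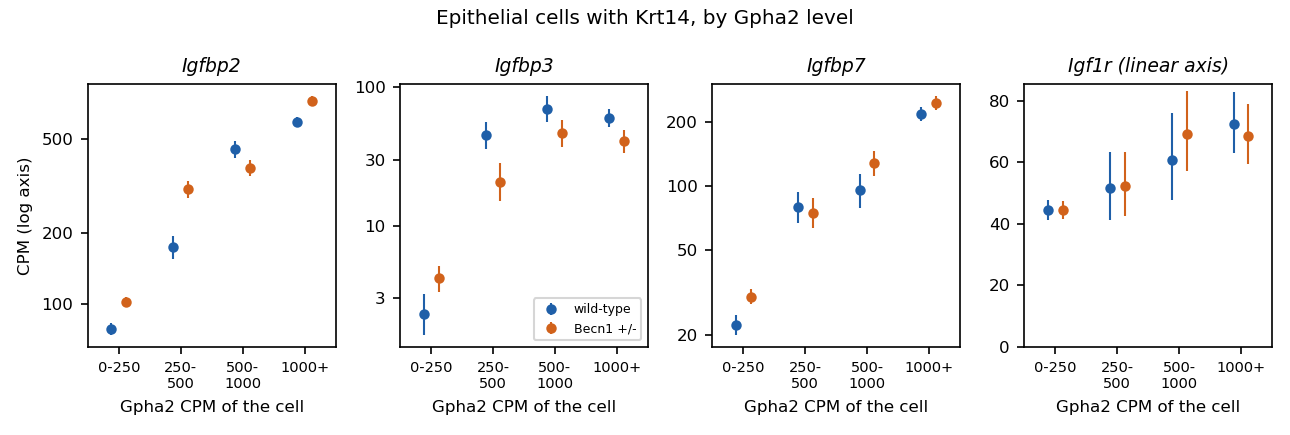
Level of 4 members (CPM; log axis except for Igf1r) in epithelial cells with at least 2000 CPM of Krt14, by the Gpha2 level of the cell, for the wild-type (blue) and the Becn1 +/- (orange) library, with exact 95% Poisson intervals. Igfbp2 and Igfbp7 are higher at each further Gpha2 step in both libraries, whereas Igfbp3 is at 45.2 and 20.8 CPM already in the step from 250 to 500 CPM.

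Conjunctival markers and Igfbp3 were both lower in limbal cells of the heterozygote library. The 3 markers Krt4, Krt13 and Krt19 were all detected in limbal cells of both libraries and summed to 928 and 435 CPM, as Igfbp3 stood at 63.0 and 42.8 CPM. In wing cells the same 3 markers summed to 892 and 832 CPM, with Igfbp3 at 0.398 and 0.275 CPM. The part of conjunctival cells in the limbal values was not tested. Outside all gates, cells with at least 2000 CPM of Krt13 and under 1000 CPM of Dcn (108 and 223 cells) had 43.3 and 2.60 CPM of Igfbp3. Superficial cells with at least 2000 CPM of Psca (100 and 311 cells) had 0.364 and 0.521 CPM. Between basal and wing cells neither of the 2 members measured, Igfbp2 and Igf1r, was 2 times apart in both libraries, where the background was 4.41% of 4101 genes higher and 7.58% lower in basal cells. With no minimum CPM, 2 members passed, both higher in basal cells. Igfbp7 was at 24.0 and 24.7 against 7.29 and 7.10 CPM (log2 ratios of 1.71 and 1.80). Igfbp3 was at 1.04 and 2.58 against 0.398 and 0.275 CPM.

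Within the stroma, 5 of the 9 members were at least 2 times lower in Kera-high than in Kera-low cells in both libraries, against 5.56% of 4478 genes. The log2 ratio of Kera-high over Kera-low was -4.38 (-4.55 to -4.21) and -4.85 (-5.03 to -4.68) for Igfbp6, and -2.66 and -2.79 for Igfbp7. It was -2.48 and -1.74 for Igfbp5, -4.10 and -2.35 for Igf1, and -4.13 and -4.03 for Igf2. Both ligands and 3 binding proteins thus shared this direction. The ligands reached the minimum through Kera-low cells alone, so their place in the count followed from the minimum. Igfbp2 had the opposite sign with 1.15 and 0.58, and Igfbp3, Igfbp4 and Igf1r lay between -0.32 and 0.30. No member was at least 2 times higher in Kera-high cells in both libraries, where the background was 2.52%. When the comparison was limited to cells with at least 10000 UMIs, which left 53 and 49 Kera-low cells, the call remained for Igfbp6 and Igfbp7, and the heterozygote ratio of Igfbp5 turned to 0.41. Igf1 (-3.83 and -1.17) and Igf2 (-3.70 and -2.66) kept their direction in these cells but no longer reached the minimum of 20 CPM in both libraries.

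The change along Kera was stepwise for Igfbp7 and steep for Igfbp6. In cells under 250 CPM of Kera (132 and 316 cells), from 1000 to 2000 CPM (24 and 99 cells) and at 2000 CPM or more (382 and 856 cells), Igfbp7 was at 3144, 1845 and 402 CPM in wild-type cells and at 2958, 1076 and 313 CPM in heterozygote cells. Igfbp6 was at 1357, 498 and 38.8 CPM and at 1194, 109 and 26.4 CPM over the same steps. Igfbp2 ran the other way, from 11333 to 17385 and 25222 CPM and from 17923 to 21989 and 28207 CPM. Just below the 1000 CPM threshold, from 500 to 1000 CPM, there were 7 wild-type cells, with 1812 CPM of Igfbp6, and 35 heterozygote cells, with 93.7 CPM.

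**Figure D3:**
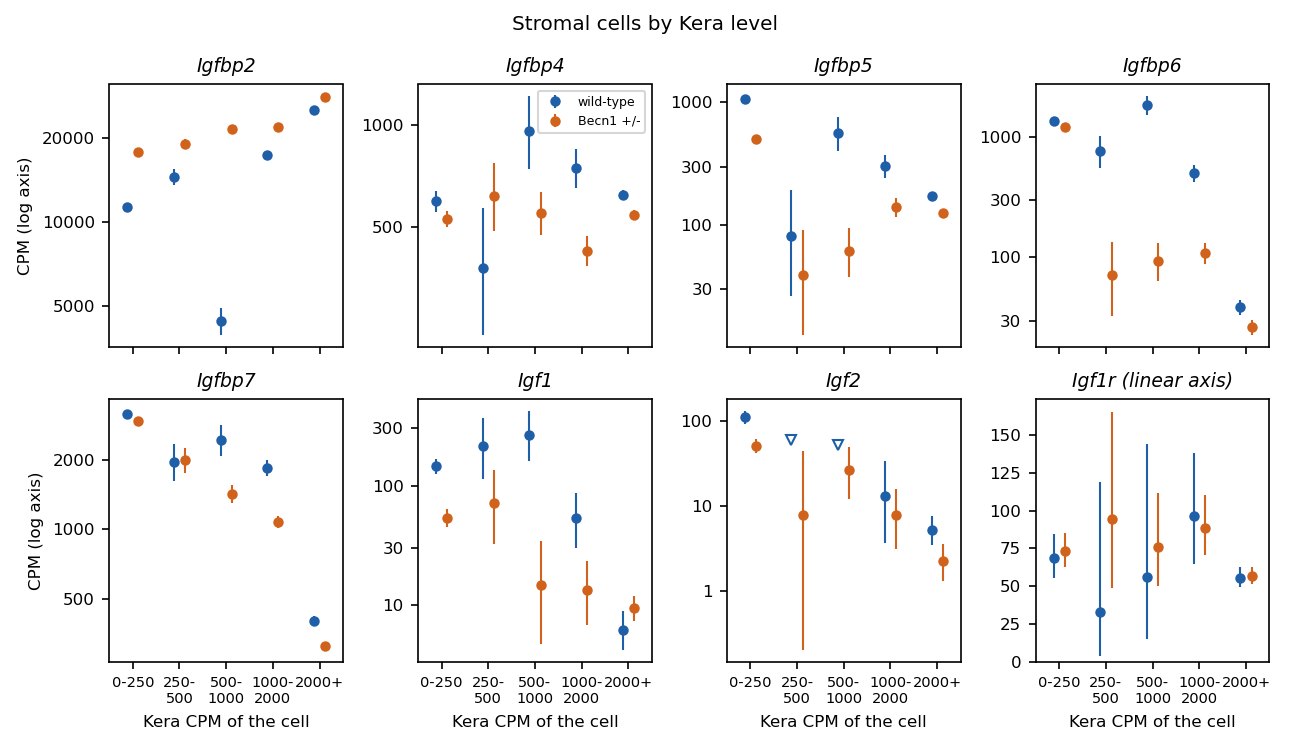
Level of 8 members (CPM; log axis except for Igf1r) in stromal cells by the Kera level of the cell, for the wild-type (blue) and the Becn1 +/- (orange) library, with exact 95% Poisson intervals and open triangles for upper bounds where no UMI was counted. Igfbp6, Igfbp7, Igf1 and Igf2 are lower at 2000 CPM of Kera or more than under 250 CPM; the step from 250 to 500 CPM holds 6 and 16 cells and the wild-type step from 500 to 1000 CPM holds 7.

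The Kera-low cells were themselves of unlike kinds, as seen when they were divided at 1000 CPM of Col3a1, a fibrillar collagen of loose connective tissue, a division chosen after the values had been seen. Cells with Col3a1 made up 59 of 145 wild-type Kera-low cells (40.7%, exact binomial interval 32.6% to 49.2%) and 79 of 367 heterozygote ones (21.5%, 17.4% to 26.1%). In cells with Col3a1, Igfbp2 was at 3789 and 5728 CPM, compared with 16137 and 21293 CPM in cells below the division. The ligands were on the opposite side: Igf1 was at 285 and 161 CPM with Col3a1 against 65.2 and 25.1 CPM below, and Igf2 at 200 and 144 CPM against 33.8 and 24.6 CPM. Igfbp6 (2056 and 2903 CPM against 875 and 584 CPM) and Igfbp5 (1457 and 1307 CPM against 677 and 227 CPM) went with the ligands, and Igfbp7 went with Igfbp2 (1498 and 1856 CPM against 4123 and 2928 CPM). H19, the maternally expressed RNA next to Igf2, was at 213 and 199 CPM with Col3a1 and at 9.32 and 4.32 CPM below. In cells thinned to 5000 UMIs, 50 of 51 wild-type and 48 of 58 heterozygote Kera-low cells with Igf1 also held Igfbp6, compared with 84.1% and 59.7% of all Kera-low cells.

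**Figure D4:**
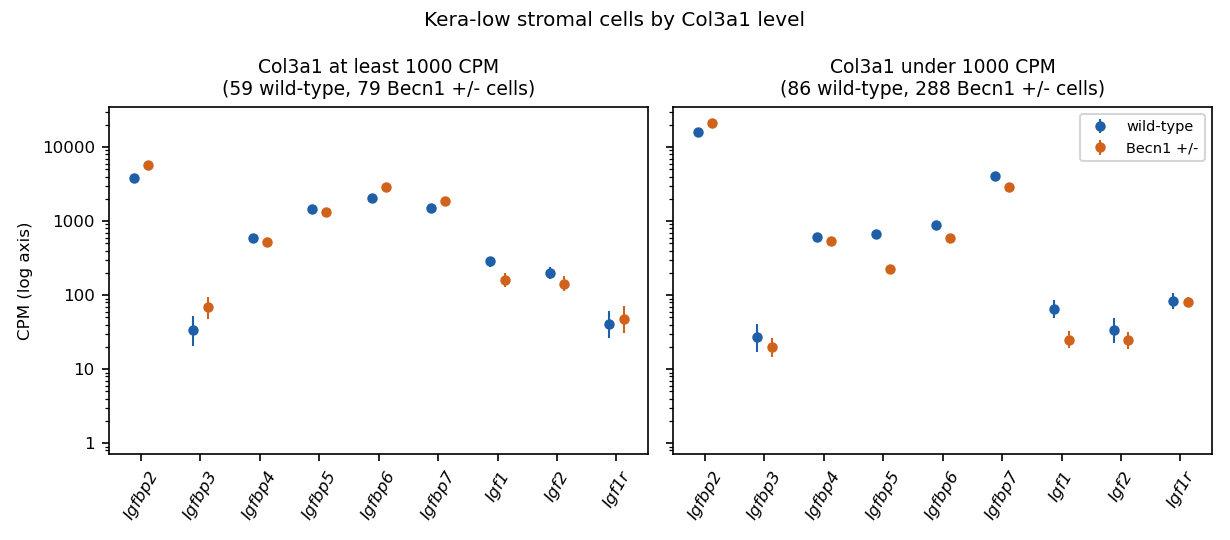
Level of the 9 members (CPM, log axis) in Kera-low stromal cells with at least 1000 CPM of Col3a1 (left) and under it (right), for the wild-type (blue) and the Becn1 +/- (orange) library, with exact 95% Poisson intervals. Igf1, Igf2, Igfbp5 and Igfbp6 are higher on the left and Igfbp2 and Igfbp7 on the right, in both libraries.

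Between the libraries, the members differed most often in Kera-low cells, where 4 of the 9 were at least 1.5 times apart. Igf1 (log2 heterozygote over wild-type -1.62, -1.94 to -1.32), Igfbp5 (-1.22, -1.33 to -1.11) and Igf2 (-1.12, -1.47 to -0.77) were lower in the heterozygote library, and Igfbp2 (0.73, 0.70 to 0.75) was higher. The background in this gate was wide, with 7.22% of 4906 genes lower and 4.99% higher by the same measure, and the central 90% of genes ran from -0.70 to 0.58. Col3a1 cells made up 40.7% and 21.5% of the gate, and the part of this share in the ratios was not tested. Inside the cells with Col3a1 the ratio was -0.16 for Igfbp5, -0.82 for Igf1, -0.47 for Igf2 and 0.60 for Igfbp2, and below the division it was -1.58, -1.38, -0.47 and 0.40. Igf1 thus stayed past 1.5 times on both sides, Igfbp5 only below the division, Igfbp2 only with Col3a1, and Igf2 on neither side. Igfbp3 was higher in the heterozygote cells with Col3a1, at 34.1 against 68.9 CPM (1.00, 0.19 to 1.88). The call of Igfbp2 was also lost without doublet removal (0.56) and with halved gate thresholds (0.58).

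Other cells in the Kera-low gate were checked by their markers. Of the 4 immune markers, 3 were above 0 in both libraries and summed to 293 and 53.9 CPM, with Ptprc at 0 in both. Only 1 wild-type cell and no heterozygote cell had 500 CPM of Cd74 or more, and without it the ratios were -1.62 for Igf1, -1.23 for Igfbp5, -1.11 for Igf2 and 0.71 for Igfbp2. Of the 4 mural markers, 3 and 2 were above 0, they summed to 110 and 63.1 CPM, nearly all of it Acta2, and Myh11 was at 0 in both libraries. The part of mural cells in the ratios was not tested. Of the 4 markers of blood vessel lining, 2 and 3 were above 0, and they summed to 13.8 and 12.3 CPM. The 4 markers of corneal endothelium summed to more, at 741 and 670 CPM, with 3 and 4 of them at 20 CPM or more. Their sums were 305 and 274 CPM in Kera-high cells and 420 and 376 CPM in limbal cells. The part of corneal endothelial cells in the ratios was not tested.

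In Kera-high cells 1 of the 7 members measured was 1.5 times apart, against a background of 0.779% of 4491 genes lower and 1.02% higher. Igfbp6 was lower in the heterozygote library, with 65.1 CPM (58.4 to 72.4) against 35.1 CPM (31.2 to 39.3) and a log2 ratio of -0.89 (-1.12 to -0.66). Its UMIs were unevenly spread, as 10 cells held 70.6% of them in wild-type cells and 42.0% in heterozygote cells. The ratio was -0.54 when all gate thresholds were doubled, which ended the call. At 5000 UMIs per cell, 9.61% and 9.42% of Kera-high cells held Igfbp6. The other 6 members ranged from -0.49 for Igfbp5 to 0.15 for Igfbp2.

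Over pooled stromal cells 2 of the 8 members measured were lower in the heterozygote library, with a background of 1.11% of 4582 genes lower and 1.05% higher. They were Igfbp5 at 354 against 202 CPM (-0.81) and Igf1 at 40.2 against 19.8 CPM (-1.02). Igf1 reached the minimum of 20 CPM through the wild-type library alone. In Kera-high cells Igf1 was not lower, at 8.92 against 9.82 CPM (0.13), and Igfbp5 was at 179 against 127 CPM (-0.49). Stromal cells with at least 1000 CPM of the immediate early gene Fos made up 40.3% and 28.1% of the stroma. With the 4 combinations of Kera and Fos weighted equally, the ratios were -1.04 for Igfbp5 and -1.30 for Igf1. This weighting counts Kera-low cells for more than the pool does.

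In the epithelium no member with a mean of at least 20 CPM was 1.5 times apart, among 4 in limbal, 3 in basal and 2 in wing cells and 3 over pooled epithelial cells. Below that minimum, Igfbp5 was at 12.3 against 7.87 CPM and Igfbp6 at 2.52 against 1.21 CPM in wing cells, and in basal cells Igfbp3 was at 1.04 against 2.58 CPM and Igfbp6 at 1.04 against 2.53 CPM. The backgrounds were 1.02% of 4229 genes higher and 1.32% lower in limbal cells, 0.991% of 4137 higher and 0.435% lower in basal cells, and 0.468% of 4277 higher and 1.15% lower in wing cells. Igfbp3 in limbal cells came closest, with a log2 ratio of -0.56 (-0.83 to -0.28), and passed the mark with halved thresholds and with the highest cell of each gate left out. The ratios of the other limbal members were 0.13 for Igfbp2 and 0.16 for Igfbp7, and Igf1r was at 69.0 against 68.9 CPM.

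**Figure D5:**
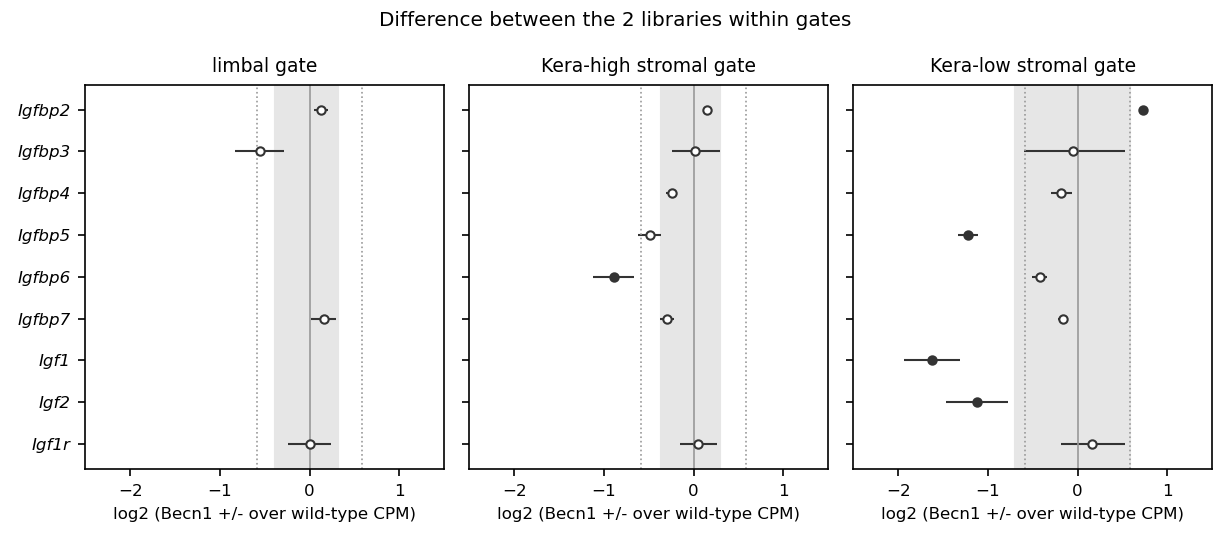
Log2 ratio of the heterozygote over the wild-type library for members with a mean of at least 20 CPM in the limbal, Kera-high and Kera-low gates; bars are exact 95% intervals for counting error, grey bands the central 90% of all genes measured, dotted lines 1.5-fold, and filled points lie beyond it. The filled points are Igfbp6 in Kera-high cells (-0.89) and Igfbp2, Igfbp5, Igf1 and Igf2 in Kera-low cells.

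Of 41 other genes of the pathway, listed by role, all were present in the matrices, and 22 had a mean of at least 20 CPM over the stromal gates in each library. Of these, 7 were at least 2 times lower in Kera-high than in Kera-low cells in both libraries, where 5.56% of all genes were: the binding protein relatives Ctgf, Wisp1 and Wisp2, the kinase subunit Pik3r1, and the imprinted genes H19, Plagl1 and Cdkn1c. Wisp2 was at 276 and 209 CPM in Kera-low against 3.23 and 2.69 CPM in Kera-high cells, and the growth inhibitor Cdkn1c at 735 and 498 CPM against 116 and 73.7 CPM. H19, Wisp2 and Plagl1, at 1.05 to 4.68 CPM in Kera-high cells, reached the minimum through Kera-low cells alone. Their place in the count thus followed from the minimum. The imprinted gene Dlk1 was the 1 gene higher in Kera-high cells, where 2.52% of all genes were. It stood at 299 and 196 CPM against 51.9 and 84.6 CPM. Htra1, a secreted protease that cuts binding proteins, was the 1 of 11 pathway genes higher in limbal than in basal cells. Its levels were 89.1 and 72.7 CPM against 38.8 and 34.5 CPM, and 3.23% of all genes were higher by this measure. Htra1 was higher in basal than in wing cells too, together with the matrix protein gene Cyr61 (2 of 12, against 4.41% of all genes). There Htra1, at 13.1 and 10.9 CPM in wing cells, reached the minimum through basal cells alone, so its place in the count followed from the minimum. Between pooled stromal and epithelial cells 9 of 19 pathway genes were higher in the stroma, against 21.7% of all genes (Wisp1, Wisp2, Htra1, Shc1, Grb10, Pik3r1, Foxo3, Dlk1 and Cdkn1c) and Pdpk1 was lower, against 16.8%. Wisp1, Wisp2, Grb10 and Dlk1, at 0.225 to 2.01 CPM in the epithelium, reached the minimum through the stroma alone. Their place in the count thus followed from the minimum. Shc1 and Cdkn1c, at 13.3 to 17.0 CPM in the epithelium, also reached it through the stroma alone. Pdpk1, at 17.3 and 17.0 CPM in the stroma, reached it through the epithelium alone. In the stroma Htra1 reached 488 and 529 CPM in Kera-high and 831 and 886 CPM in Kera-low cells.

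In Kera-low cells 1 of 24 pathway genes was higher and 4 were lower in the heterozygote library, in the gate where all genes differed most often (4.99% higher and 7.22% lower). H19 was at 92.1 against 40.2 CPM (-1.20), Stc1, an inhibitor of PAPP-A, at 63.7 against 34.9 CPM (-0.87), Plagl1 at 60.2 against 38.4 CPM (-0.65) and Cyr61 at 735 against 472 CPM (-0.64). Dlk1 was the gene that was higher, at 51.9 against 84.6 CPM (0.70). In Kera-high cells, however, it was lower at 299 against 196 CPM (-0.61), as was Cdkn1c (-0.65). This made 2 of 20 lower there, against 0.779% of all genes. In basal cells Cyr61 was the 1 of 12 that was lower (-0.61), against 0.435% of all genes. In limbal and wing cells 0 of 14 and 0 of 12 were 1.5 times apart. Over pooled cells it was 0 of 20 in the stroma and 1 of 14 in the epithelium, Ide (0.67), a protease that degrades insulin, with a background of 0.306% of 4254 genes higher and 0.447% lower. Ide, at 16.8 against 26.6 CPM, reached the minimum through the heterozygote library alone. Of the signalling genes, Akt1 stood between 48.5 and 85.6 CPM, Foxo1 between 50.4 and 130 CPM and Irs2 between 16.7 and 43.0 CPM over the gates, whereas Irs1 was at 0 to 9.51 CPM.

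The genes most like each member in their levels over the 5 gates and 2 libraries (10 points, log2 of CPM + 10, 2155 genes searched) are given as a description, since the points share libraries and depth. For Igfbp2 they were Thbs1, Alkbh1 and Tns1 (Pearson r 0.995 to 0.996), and for Igfbp4 the genes Kdelr3, P3h3 and Fkbp10 (0.999 to 1.00). Igfbp5 was closest to Htra3, Islr and Cpxm1 (0.994 to 0.998), and Igfbp6 to Sfrp2, 1500015O10Rik and Mzt2 (0.995 to 0.999). Igfbp7 was closest to Rnase4, Csrp2 and Mgst1 (0.986 to 0.994), Igf1 to Postn, Il6 and Akap12 (0.994 to 0.995), and Igf2 to Pi16, Thy1 and Myoc (0.995 to 0.996). Igf1 and Igf2 had r = 0.979 with each other, while Igfbp3 and Igf2 had r = 0.293.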

How the data were processed

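Single-cell RNA of whole corneas with their limbal rim was measured with the 10x Genomics droplet assay in 1 wild-type and 1 Becn1 +/- mouse. The deposited matrices hold UMI counts per gene and cell, made by the authors with Cell Ranger 2.1.1 on mm10, per the submitters' processing notes. They hold 2513 and 5155 barcodes with 54913980 and 74363359 UMIs, and at least 8089 and 5430 UMIs per barcode. Scrublet, run in scanpy 1.11.5, gave each barcode a doublet score. The 51 and 213 barcodes with the highest scores were removed, numbers set beforehand by a rate of 0.8% per 1000 barcodes. Cells passing the limbal and the basal gate (45 and 102) were kept as limbal, and cells passing a stromal and an epithelial gate (6 and 11) were left out.

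UMIs were summed per gate and library and divided by the gate's total, which gives CPM. UMI counts of this assay are not scaled by gene length. Log2 ratios had 0.5 added to each count, and their intervals are exact conditional binomial intervals from scipy 1.17.1. A gene was counted as measured at a mean of 20 CPM and as differing at 1.5 times between libraries, or 2 times in the same direction in both libraries between gates. With 1 library per genotype no test was made. Thinning drew 5000 UMIs from each cell and left out 0 cells. The calculation was tested on simulated data.

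Alternatives changed the doublet step, the gate thresholds, the minimum CPM, the count added, the depth of cells and the scaling (TMM, edgeR 4.0.16). Leaving out the highest cell and the Col3a1 and Cd74 divisions were chosen after seeing the data. The members, the lists and the rules were chosen with earlier results of these data known. Named were all members, pathway genes past a comparison's fold, and for each member with 100 CPM in a gate the 3 genes most like it; the signalling genes given by range were added for their roles.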

Additional observations from a re-analysis of the deposited data

How the results depend on the processing

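Each genotype is 1 animal and 1 library, so intervals cover counting error only and genotype cannot be told apart from library. No paired analysis was possible because there is 1 library per genotype. Alternatives were computed only for ratios already past the fold, 7 between libraries and 26 between gates, so a change of sign was unlikely from the start. Of 77 alternative values between libraries, 27 lay outside the counting interval of the reported ratio and none reversed. Of 208 between gates, 87 lay outside it with the same sign and 1 reversed. With cells of at least 10000 UMIs the heterozygote log2 ratio of Igfbp5 between Kera-high and Kera-low cells was 0.41 (reported as -1.74). That setting left 53 and 49 Kera-low cells, and the count of members lower in Kera-high cells was 2 in place of 5. In Kera-low cells the ratio between libraries ranged over the alternatives from -2.56 to -0.16 for Igfbp5, from -2.97 to -0.82 for Igf1, from -1.58 to -0.47 for Igf2 and from 0.40 to 0.76 for Igfbp2.

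Counts of members past a threshold moved as follows. Between libraries, limbal cells went from 0 to 1 with halved gate thresholds, with no minimum CPM and with the highest cell left out. Basal cells went from 0 to 1 without doublet removal and to 3 with no minimum. Wing cells went from 0 to 1 with doubled thresholds and to 4 with no minimum. Kera-high cells went from 1 to 2 without doublet removal and with no minimum, and to 0 with doubled thresholds and at a minimum of 100 CPM. Kera-low cells went from 4 to 6 with cells of at least 10000 UMIs (Igfbp6 and Igfbp7 added), to 5 with doubled thresholds (Igfbp6 added), and to 3 with halved thresholds (Igfbp2 lost) and at 100 CPM (Igf2 lost). Without doublet removal they stayed at 4, with Igfbp6 in place of Igfbp2. Pooled stromal cells went from 2 to 1 at 100 CPM and to 3 (Igf2 added) with halved thresholds, the mean of per-cell CPM and no minimum, and with cells of at least 10000 UMIs Igfbp6 took the place of Igf1, while pooled epithelial cells went from 0 to 1 with no minimum. Between gates, the limbal count went from 3 to 5, the basal over wing count from 0 to 2 and the stromal count from 5 to 8 with no minimum. The limbal count went to 2 at 100 CPM and with halved thresholds (Igfbp3 lost). The count of members lower in Kera-high cells went from 5 to 3 at 100 CPM and to 4 with doubled thresholds (Igf2 lost). The stromal over epithelial count went to 6 (Igfbp3 added) with halved or doubled thresholds and the mean of per-cell CPM. TMM scaling shifted ratios by 0.13 in wing cells, by -0.27 and -0.31 between pooled stromal and epithelial cells, and by 0.19 and 0.20 between the stromal gates. Apart from the fewer cells or genes that a setting leaves, the cause was not tested.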

Other observations

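Cells outside all gates with under 1000 CPM of Dcn were described by 1 marker each, as values with no comparison. Those with at least 50 CPM of Pecam1, a marker of blood vessel lining, numbered 12 and 34 in the wild-type and the heterozygote library. Igfbp7 was their most abundant member, at 2236 and 2992 CPM, and Igfbp4 was at 406 and 173 CPM. Igfbp3 was at 330 and 138 CPM there, above its level in every gate, and Igf2 was at 119 and 26.4 CPM with H19 at 139 and 38.1 CPM. Cells with at least 100 CPM of Slc4a11, a transporter of the corneal endothelium, numbered 4 and 16, with Igfbp2 at 660 and 5096 CPM and Igf1r at 138 and 118 CPM. In the superficial cells with Psca, Igf1r was at 10.2 and 11.6 CPM, below its level in every gate, and Igfbp2 was at 45.5 and 71.7 CPM.

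Within Kera-high cells the binding proteins also varied with Fos. Igfbp3 was at 19.02 and 13.3 CPM in cells with at least 1000 CPM of Fos and at 44.9 and 43.4 CPM in the others. Igfbp6 had the opposite order, at 97.1 and 72.7 CPM against 45.6 and 22.1 CPM, as did Igfbp7, at 651 and 527 CPM against 382 and 348 CPM. Igfbp2 was at 22519 and 24495 CPM against 26152 and 28600 CPM.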
